A study of Drosophila melanogaster with 2 samples.

Results

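The candidates described here come from chromatin immunoprecipitation of the transcription factor cropped (crp) and lie in the pericentric heterochromatin of Drosophila melanogaster arms 2L, 3L and 3R. The list they come from is a permissive one that the authors made as input for a later selection, and it holds background as well as peaks, so a candidate is not by itself a bound site. They were chosen by position alone, as the candidates of the pooled list with a summit beyond base 22000000 of 2L, beyond 22900000 of 3L or below 4200000 of 3R in the dm6 build. By this rule 608 of 26505 pooled candidates were members, 162 on 2L, 310 on 3L and 136 on 3R, and the other 17301 candidates of these 3 arms served for comparison. The series holds a single group, crp-GFP embryos of 0 to 16 h and mixed sex, as biological replicates 1 and 3. Every sample carried a transgene for cropped with green fluorescent protein at its C terminus, and chromatin was precipitated with an antibody against that tag. The embryos were whole and pooled, so cell types cannot be told apart, and control libraries were not analysed here. The authors' files give a list of exactly 30000 candidates for each replicate, the pooled list, and 1122 peaks that passed their irreproducible discovery rate (IDR) procedure, which compares the ranks of peaks between replicates. Read counts are not in these lists and the depth of the libraries is unknown.

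Cropped belongs to the basic helix-loop-helix zipper family, is the fly counterpart of AP-4 of vertebrates, and binds as a dimer to the E-box CAGCTG. Pericentric heterochromatin flanks the centromeres, is packed with transposons and satellite repeats, and carries histone H3 methylated at lysine 9 and bound by Heterochromatin Protein 1. Genes are sparse there and often have very long introns filled with repeats, yet many of them are essential and are transcribed from within this chromatin.

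The sequences below show the kinds of site found, each as the 101 bp centred on a summit, read from the plus strand of the dm6 assembly with CAGCTG in capitals. The first is the single member in the IDR list, which holds 4.23% of all pooled candidates, at the beta-Man promoter. It is followed by the 2 strongest other members with CAGCTG and the 2 strongest members in which every 36-mer occurs more than once in the assembly.
beta-Man promoter, chr3R:4197115-4197215: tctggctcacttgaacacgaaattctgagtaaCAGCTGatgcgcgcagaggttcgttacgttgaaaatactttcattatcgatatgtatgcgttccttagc
alpha-Cat coding exon, chr3L:23334440-23334540: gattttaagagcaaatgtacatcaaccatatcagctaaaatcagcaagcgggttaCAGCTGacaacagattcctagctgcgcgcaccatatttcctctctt
scro intron, chr3L:24731930-24732030: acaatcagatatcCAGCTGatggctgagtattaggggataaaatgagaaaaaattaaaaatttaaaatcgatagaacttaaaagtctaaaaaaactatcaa
intergenic, nearest to vtd, chr3L:27173090-27173190: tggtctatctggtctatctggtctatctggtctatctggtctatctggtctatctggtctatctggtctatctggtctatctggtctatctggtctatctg
intergenic, nearest to scro, chr3L:24684067-24684167: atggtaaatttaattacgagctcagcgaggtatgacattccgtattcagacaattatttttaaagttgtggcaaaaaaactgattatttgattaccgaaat
The midpoint of CAGCTG lay 15 bp to the left of the beta-Man summit, 8 bp to the right of the alpha-Cat summit and 34 bp to the left of the scro summit. The fourth sequence is a run of a 9 bp unit, and its 36-mers had a median of 15 copies in the assembly, counting those within the run itself. The 36-mers of the fifth had a median of 24 copies, although its letters show no such short unit.

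The stretches had the sequence make-up known for pericentric heterochromatin, although no histone mark was measured. They spanned 10.8 Mb of assembled sequence, against 72.8 Mb in the rest of the same arms. Positions whose 36-mer recurs in the assembly took 58.5% of the pericentric bases and 4.39% of the rest. The read length is not given in the sources used here, and 36 bp stands in for it. Annotated transposons covered 14.7% of the pericentric bases and 3.79% of the rest. The stretches held 93 protein-coding genes, or 8.62 per Mb, with a median length of 6611 bp, against 8724 genes, 120 per Mb and a median length of 2069 bp in the rest. Coding sequence made up 1.59% of the pericentric bases and 19.2% of the rest, while introns made up 45.1% and 41.7%. On pericentric 3R introns reached 68.8% of the bases.

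Candidates were sparser in the pericentric stretches than in the rest of each arm, in every list. The pooled density was 56.4 candidates per Mb in the pericentric stretches and 238 per Mb in the rest, a ratio of 0.237. The ratio was 0.436 on 2L (107 against 246 per Mb), 0.249 on 3L (60.8 against 244) and 0.144 on 3R (32.6 against 226). The replicate lists gave 0.313 in replicate 1 and 0.195 in replicate 3, a spread of 0.0835 (SD, n = 2), so the deficit was larger than the difference between the lists. Because repeated sequence cannot be assigned to a single place, densities were also taken per Mb of single-copy 36-mers. On that scale the pericentric stretches had 136 candidates per Mb and the rest 249, a ratio of 0.547. The ratio was 0.813 on 2L, 0.556 on 3L and 0.381 on 3R, so the order of the arms was kept. No test between sets of candidates was run, since candidates along an arm are not independent replicates and the series has 1 group, and all intervals given below are 95% intervals that cover counting error only.

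**Figure D1:**
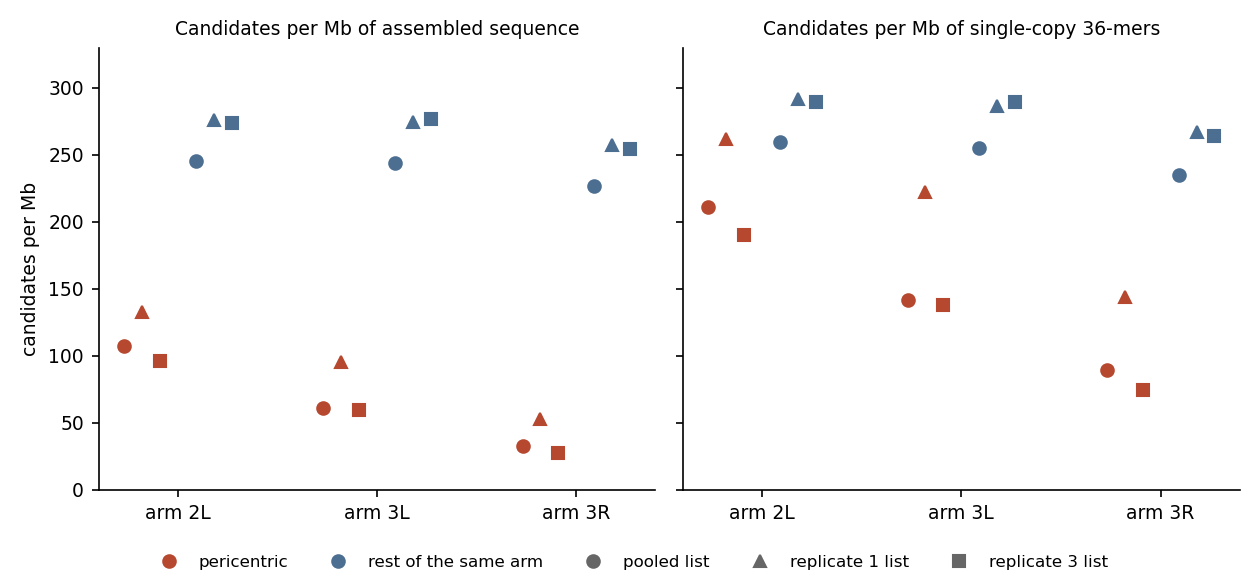
Candidates per Mb of assembled sequence (left) and per Mb of single-copy 36-mers (right) on each arm, with pericentric stretches in red to the left of the rest of the same arm in blue; each point is 1 list (pooled, replicate 1 or replicate 3). Within each list the pericentric value lies below the rest of its arm on both scales, and pooled pericentric values run from 107 on 2L to 32.6 on 3R per assembled Mb.

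The deficit lay mainly away from the boundary. Within the outermost 0.5 Mb of the pericentric stretches, 245 members gave 164 candidates per assembled Mb and 258 per single-copy Mb, against 249 per single-copy Mb in the rest of the arms. The single-copy densities there were 247 on 2L, 276 on 3L and 249 on 3R, so all 3 arms were close to the average of the rest. The adjoining 0.5 Mb bins on the arm side had 341, 175 and 339. Against these neighbours 2L and 3R were already lower, and 3L was higher. Beyond 0.5 Mb, 363 members gave 39.1 per assembled Mb and 103 per single-copy Mb. The single-copy densities of these deeper parts were 183 on 2L, 116 on 3L and 57.7 on 3R. Gene density differed along the same lines, with 30.7 genes per Mb in the outer 0.5 Mb and 5.06 per Mb deeper. On 3L the fall was uneven: the bin from 4 to 4.5 Mb inside the boundary, which holds vtd, had 209 candidates per single-copy Mb, against 74.6 and 39.8 in the bins beside it. Its 35 members make it the fullest bin of 3L beyond the first Mb. The part that repeat content and gene density have in these densities was not tested.

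**Figure D2:**
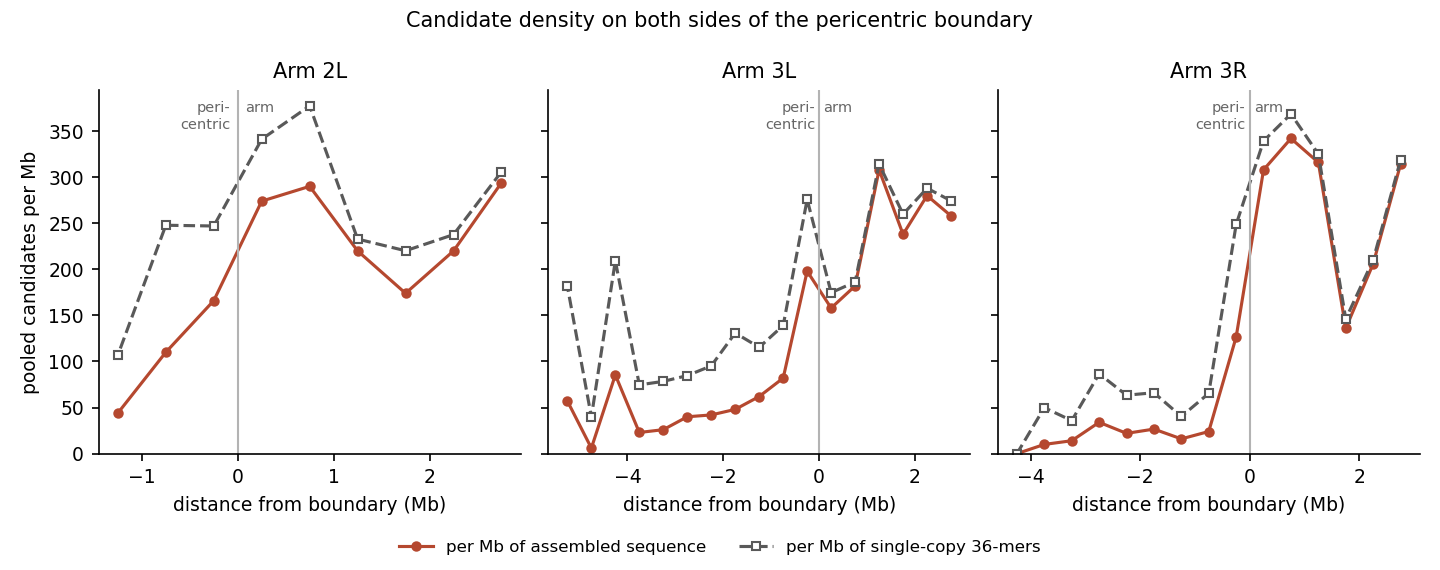
Pooled candidates per Mb in 0.5 Mb bins on each side of the boundary, with negative distances inside the pericentric stretch and positive ones along the arm; solid red lines are per Mb of assembled sequence and dashed grey lines per Mb of single-copy 36-mers. The first pericentric bin reaches 247 to 276 candidates per single-copy Mb on the 3 arms, and on 3R the next bin drops to 65.4.

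The replicates differed in how many candidates they placed in these stretches. Replicate 1 had 905 pericentric candidates and replicate 3 had 561, a ratio of 1.61, whereas the rest of the arms had 19530 and 19451, a ratio of 1.00. Replicate 1 had the larger count on each arm, with 201 against 146 on 2L, 485 against 302 on 3L and 219 against 113 on 3R. Most of the gap was deep: beyond 0.5 Mb replicate 1 had 624 candidates and replicate 3 had 309, while within the outer 0.5 Mb they had 281 and 252. Both lists stop at the same length, so these counts are shares of equal totals, and what sets the gap was not tested.

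Pericentric candidates were weak in the authors' signal value, an enrichment measure from their peak caller with a scale of its own in each list. In the pooled list the median was 22.0 (21.7 to 22.6) for the members and 23.6 (23.5 to 23.7) for the rest, a ratio of 0.932. The shift at the median was small, and the upper tail differed more. The members' maximum was 112.9 and their next value 45.3, against a maximum of 770.4 in the rest. A signal of 30 was exceeded by 60 of the 608 members and a signal of 40 by 6, against 3707 and 1427 of the 17301 candidates of the rest. The strongest 25% of the pooled list took in 86 of the members (14.1%, 11.6 to 17.1%) and 25.9% of the rest. Replicate 1 gave medians of 11.9 for pericentric candidates and 12.6 for the rest, and replicate 3 gave 13.7 and 14.6, so the median shift was in the same direction in both lists. By arm the pooled ratio of medians was 0.977 on 2L, 0.931 on 3L and 0.916 on 3R. Within 1000 bp of a protein-coding start site the pooled medians were 22.3 for the members and 25.7 for the rest. Farther away they were 22.0 and 23.0, with maxima of 45.3 and 269.1. The lowest pooled value was 18.4 in both sets.

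**Figure D3:**
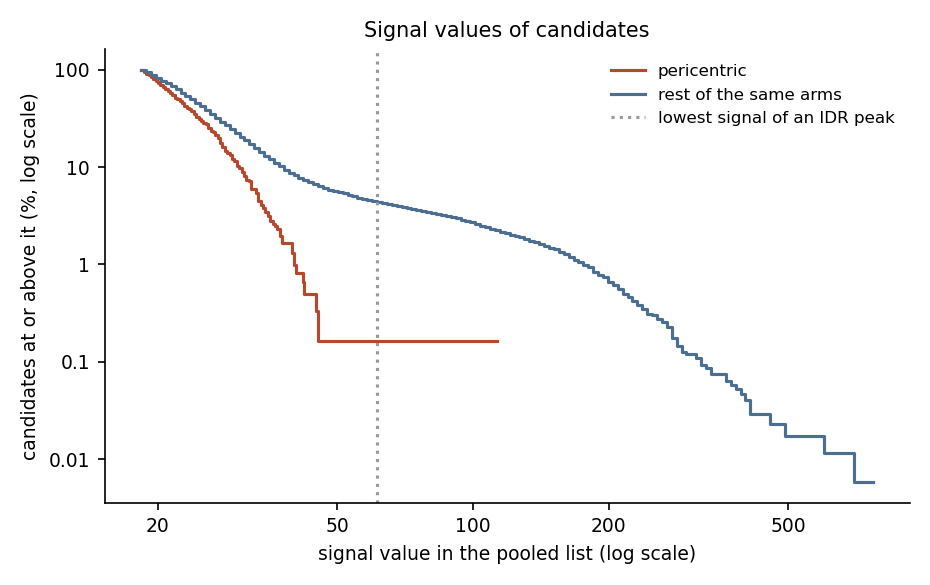
Share of candidates (%, log scale) at or above each signal value of the pooled list (log scale), for pericentric candidates (red) and the rest of the same arms (blue); the dotted line marks the lowest signal of an IDR peak. The red curve ends at 45.3 apart from a single member at 112.9, while the blue curve runs on to 770.4.

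A single member passed the IDR procedure. It makes 0.164% of the 608 members (Wilson interval 0.0290 to 0.926%), against 756 of 17301 candidates (4.37%) in the rest of the same arms and a background of 4.23% over all pooled candidates. The difference was -4.21 percentage points (-4.55 to -3.39). By the authors' q value the count was the same: 1 member was under 0.05, against 5.68% of the rest and 5.50% of all pooled candidates. In the rest, the share at or above a signal of 61.3 was also 4.37%, the same as the IDR share. The IDR count thus restates the upper tail of the signal, and the q value describes the same peaks, so these are not separate results. Of the 52 members within 1000 bp of a start site 1 passed (1.92%), against 13.4% of such candidates in the rest, a difference of -11.5 percentage points (-13.3 to -3.24). None of the 556 other members passed, which by the limit of 3 counts leaves room for 0.540% (Wilson upper bound 0.686%), and 0.415% of the corresponding candidates in the rest did. The difference away from start sites, -0.415 percentage points (-0.547 to 0.278), was therefore not detectable with these numbers.

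This member was the beta-Man promoter, whose gene encodes a beta-mannosidase, a lysosomal glycosidase. Its summit at base 4197165 of 3R was intergenic, 41 bp upstream of the start site, and only 2836 bp inside the boundary. The signal was 112.9 in the pooled list, 61.2 in replicate 1 and 50.4 in replicate 3, higher than at any other member in all 3 lists. A second, weak member lay 920 bp upstream of the same start site, with a signal of 19.2. Just outside the boundaries the nearest IDR peaks were at Suv3, a mitochondrial RNA helicase gene, 112 kb away on 3R (signal 77.2), at Chro, which encodes the chromatin and spindle protein Chromator, 21.1 kb away on 3L (125.5), and at CG31612, 205 kb away on 2L (158.2). Within 0.5 Mb outside the boundaries there were 1 IDR peak on 2L, 4 on 3L and 2 on 3R, among 137, 79 and 154 candidates. Together that is 7 of 370 (1.89%, 0.919 to 3.85%), so the IDR share was already below the 4.37% of the rest as a whole on the arm side of the boundaries. None of the 363 members deeper than 0.5 Mb was an IDR peak, which by the limit of 3 counts leaves room for 0.826% (Wilson upper bound 1.05%).

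The next strongest members were mostly intronic. The second, at 45.3 (16.8 and 28.9 in replicates 1 and 3), lay in an INE-1 transposon in the 3′ UTR of CG12581, 3742 bp from the start of Dsk, which encodes the neuropeptide drosulfakinin. Introns of scro, an NK2-type homeobox gene, held the third at 44.6 (16.6 and 26.9 in replicates 1 and 3) and the tenth at 39.4 (15.7 and 24.1). CG17698 (42.1), l(3)80Fg (42.1), Mes2 (40.5) and nrm, which encodes the cell adhesion protein neuromusculin (40.0), had their strong member in an intron as well. The eighth was intergenic, 15063 bp upstream of Gfat1, a gene of the hexosamine pathway, with 39.8 in the pooled list, 24.6 in replicate 1 and 16.0 in replicate 3. The ninth lay 197 bp upstream of a start site of CkIIalpha, in an intron of its longer transcripts. The gene encodes the catalytic subunit of casein kinase 2, and the site had 39.5 in the pooled list, 11.9 in replicate 1 and 27.4 in replicate 3. All 9 were in both replicate lists, and none had CAGCTG within 50 bp of the summit.

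Members were far from transcription start sites. The median distance to the nearest start of a protein-coding gene was 11927 bp for the members and 2573 bp for the rest. It was 5246 bp on pericentric 2L, 19596 bp on 3L and 34662 bp on 3R, against 2442 to 2745 bp in the rest of these arms. Summits within 1000 bp of a start, called promoter candidates here, made up 52 of the members (8.55%, 6.58 to 11.0%) and 30.4% of the rest, a difference of -21.9 percentage points (-24.0 to -19.3). The share was 14.2% on pericentric 2L, 6.45% on 3L and 6.62% on 3R, against 29.8 to 31.4% in the rest. Starts themselves are sparser in these stretches, with 8.62 protein-coding genes per Mb against 120 per Mb in the rest. A lower share near starts therefore does not show that members avoid promoters, and the part of gene density in it was not tested. By feature, 46.7% of the members were intronic and 40.1% intergenic, against 44.7% and 32.3% of the rest. Summits in 5′ UTRs were rarer among the members, at 0.822% against 5.43%, where 5′ UTRs made up 0.279% and 3.66% of the bases. In coding exons the shares were 8.06% and 9.75%, and the interval of their difference (-3.65 to 0.79 percentage points) included 0. Coding sequence made up 1.59% of the pericentric bases and 19.2% of the rest. The share of coding summits was thus above that of coding bases among the members and below it in the rest. These base shares, like those of 5′ UTRs, are of all assembled bases. Repeated positions took 58.5% of the pericentric bases and 4.39% of the rest, and shares of single-copy bases were not taken.

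Counted by gene rather than by candidate, pericentric promoters held an IDR peak less often than others, while their shares with any candidate had overlapping intervals. Of the 93 pericentric genes, 41 (44.1%, 34.4 to 54.2%) had a promoter candidate, against 52.9% (51.9 to 54.0%) of the 8724 others. An IDR summit stood at 1 pericentric gene (1.08%, 0.190 to 5.84%) and at 11.8% (11.2 to 12.5%) of the others. A summit could count for more than 1 gene, since in the rest 756 IDR candidates gave 1032 such genes. Sharing is easier where genes are dense, and its part in the shares by gene was not tested. Promoter windows were mostly single-copy in both sets (96.8% and 97.9% of genes had more than 50% unique bases), and within those genes the IDR shares were 1.11% and 12.1%. CAGCTG was present within 500 bp of a start at 27 pericentric genes (29.0%) and at 46.8% of the others. Among the genes with this motif, 1 of 27 pericentric genes (3.70%, 0.657 to 18.3%) had an IDR summit, against 22.4% (21.1 to 23.7%) of the 4080 others. Promoter candidates of any strength were found at 10 of those 27 (37.0%, 21.5 to 55.8%) and at 63.3% (61.8 to 64.7%) of the others, and at 31 of the 66 pericentric genes without the motif (47.0%, 35.4 to 58.8%), where the others had 43.8% (42.4 to 45.3%). So the motif went with more promoter candidates in the rest of the arms, and in the pericentric genes the 2 intervals overlapped.

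Behind beta-Man, the strongest candidates at the promoters of these 27 genes were those of Parp1, which encodes poly(ADP-ribose) polymerase (33.1 in the pooled list, 9.62 in replicate 1 and 17.4 in replicate 3), and Set1, which encodes a histone H3 lysine 4 methyltransferase (31.0, with 26.4 in replicate 3 and no candidate in replicate 1 at that summit). Next came CG40006 (24.2) and RpL10, a ribosomal protein gene (21.4), and the remaining 5 were at 19.2 to 21.0. No promoter candidate was listed at 17 of the 27, among them Gfat1, nrm, Spf45, Spf30 and ND-MLRQ, the last a subunit gene of respiratory complex I. Apart from beta-Man, the promoters with the motif thus reached at most 33.1. Higher values were found at promoters without it, namely CkIIalpha (39.5), Clamp, which encodes a zinc finger protein of dosage compensation (33.7), and Nubpl (33.6).

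Genes long known from pericentric chromatin were also looked up. Of 31 listed genes, 22 lie in the stretches studied, 8 lie outside them and 1 symbol was not matched. A promoter candidate was found at 9 of the 22, an IDR peak at none, and a member somewhere in the gene body at 21. Over all 93 pericentric genes a promoter candidate was found at 41 and an IDR peak at 1, and both shares are near those among the listed genes. A member in the gene body was less common over all 93 genes than among the listed ones. The list holds very long genes such as Myo81F (1965857 bp), and the part of gene length in this was not tested. After Parp1 and Set1 came RpL5, a ribosomal protein gene (28.4, summit 1 bp upstream of a start), and cta, which encodes the G protein alpha subunit concertina of gastrulation (28.2). Then came lt, which encodes the Vps41 subunit of a vesicle tethering complex (27.0), spok, a gene of ecdysteroid synthesis (24.3), and vtd, which encodes the Rad21 subunit of cohesin (22.6). The remaining promoter candidates were at nAChRalpha4, an acetylcholine receptor subunit gene (22.5), and Cht10, a chitinase gene (22.0). RpL5, cta, lt, Cht10 and Parp1 had their candidate in both replicate lists, with replicate 1 values of 9.62 to 17.6 and replicate 3 values of 12.4 to 17.4. Set1, spok, vtd and nAChRalpha4 had their strongest one in replicate 3 alone. All 9 values lie far below the lowest IDR signal of 61.3.

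Many members lay in the bodies of a few long genes. Myo81F, a myosin gene of 1965857 bp on 3R, held 45 members, 43 of them in introns, with signals from 18.4 to 30.0 and a median of 21.3. That is 22.9 per Mb of the gene and 61.6 per single-copy Mb, and 7 of the 45 were in both replicate lists. nAChRalpha4 held 19 members in 80780 bp (267 per single-copy Mb), CG42748 held 18 in 35001 bp (524), nrm held 18 in 41929 bp (437) and l(3)80Fg held 17 in 215672 bp (142). All these genes were named because they held the most members, and overlapping candidates were counted separately. High densities in the shorter ones therefore follow in part from that choice. CG42748, nrm and nAChRalpha4 lie within 0.5 Mb of a boundary, and their values were above the 249 per single-copy Mb of the rest of the arms. Given how they were picked, this does not show a local excess, which was not tested. Myo81F and l(3)80Fg lie deep and were sparser than the rest of the arms. The members of all these genes were ordinary in strength, with medians from 20.8 to 25.4.

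Repeated sequence was underrepresented at the members relative to the stretches they lie in, and overrepresented relative to the rest. Some recurring 36-mer was present within the summit window of 118 members (19.4%, 16.5 to 22.7%), against 0.468% of the rest. Windows with more than 50% of their 36-mers repeated numbered 11 (1.81%, 1.01 to 3.21%), against 0.110% of the rest, although a repeated 36-mer stands at 58.5% of pericentric positions. The candidates were therefore almost all placed on sequence that can be told apart, and nothing is measured here about cropped on satellites and recent transposon copies. Annotated transposons held 71 summits (11.7%, 9.36 to 14.5%), against 0.676% of the rest. INE-1, a short, old and degenerate element, alone accounted for 30 of them and Cr1a, a retrotransposon, for 8. Of the single-copy bases, 11.0% lie in annotated transposons in the pericentric stretches and 0.484% in the rest. Over the 3 arms together the share of summits in transposons was thus near the share of single-copy sequence there. By arm the shares of summits and of single-copy bases were 11.1% and 16.2% on 2L, 15.5% and 14.3% on 3L, and 3.68% and 3.61% on 3R. The 71 had a median signal of 21.8, and 19 of them were in both replicate lists. Annotated transposons covered 49.4% and 62.6% of the first and second 0.5 Mb bins of 3L and at most 14.0% further in, and 37.7% of the first bin of 2L and at most 13.4% further in. On 3R no bin exceeded 11.7%, with no such fall. Elements that are not annotated are not counted.

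The E-box CAGCTG, which reads the same on both strands, was scarce in these stretches and at their summits. Single-copy sequence held 260 copies per Mb in the pericentric stretches and 498 per Mb in the rest. Of the 1162 single-copy pericentric copies, 15 (1.29%) had a pooled summit within 50 bp, against 1251 of 34628 (3.61%) in the rest. Candidates themselves were sparser there, at 136 against 249 per single-copy Mb. The part of that lower density in the 2 shares was not tested. Among the members, 15 (2.47%, 1.50 to 4.03%) had the hexamer in the 101 bp around the summit and 13 (2.14%, 1.25 to 3.62%) in flanks of the same total length that start 300 bp away. In the rest 6.45% had it at the summit and 4.07% in the flanks. Summit and flank thus differed by 0.329 percentage points among the members, with overlapping intervals. The lists of replicates 1 and 3 gave 0.663 and 0.891, and members above the list's median signal gave 2.51. In the rest the difference was larger, and the intervals (6.09 to 6.83% and 3.79 to 4.38%) were apart. That excess lay at promoter candidates of the rest, with 12.6% at the summit and 4.69% in the flanks. The other candidates of the rest had 3.76% and 3.81%. Among the members, promoter candidates had 7.69% and 5.77%, and the 556 others had 1.98% and 1.80%. The 15 members with the hexamer had a median signal of 26.7, and the 593 without had 22.0; 9 of the 15 were in both replicate lists, against 136 of the 593. Second to beta-Man among them was the alpha-Cat site shown above, in a coding exon of the alpha-catenin gene, with 37.6 in the pooled list and 27.4 in replicate 3, and no candidate in replicate 1. The scro site shown above had 36.5, with 17.9 in replicate 1 and 16.0 in replicate 3. The summit windows were also poorer in G and C, with a median of 35.6% for the members and 38.6% for the rest, beside 39.7% and 42.4% over all bases of these stretches.

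Members recurred between replicates less often than the rest. Recurrence in a replicate list required an overlap of no less than 50% of whichever interval was shorter. Both lists had a candidate at 145 members (23.8%, 20.6 to 27.4%) and at 32.6% (31.9 to 33.3%) of the rest, a difference of -8.77 percentage points (-12.1 to -5.16). The shares were 25.9% on pericentric 2L, 23.5% on 3L and 22.1% on 3R, so each arm lay below its own rest (32.5 to 32.9%), although on 2L the interval of the difference (-12.8 to 0.81 percentage points) included 0. Replicate 1 alone had a candidate at 224 members, replicate 3 alone at 183, and neither at 56. Presence in replicate 1 was 60.7% among the members and 59.0% in the rest, a difference of 1.67 percentage points with an interval that included 0 (-2.33 to 5.55), while presence in replicate 3 was lower among the members, at 53.9% against 65.8%. Among promoter candidates the shares in both lists were 28.8% (18.3 to 42.3%) for the members and 43.9% (42.5 to 45.2%) for the rest, and among the other candidates 23.4% (20.1 to 27.1%) and 27.7% (26.9 to 28.5%). The pooled list was made from both replicates' reads, so presence in a replicate list is not independent of membership.

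**Figure D4:**
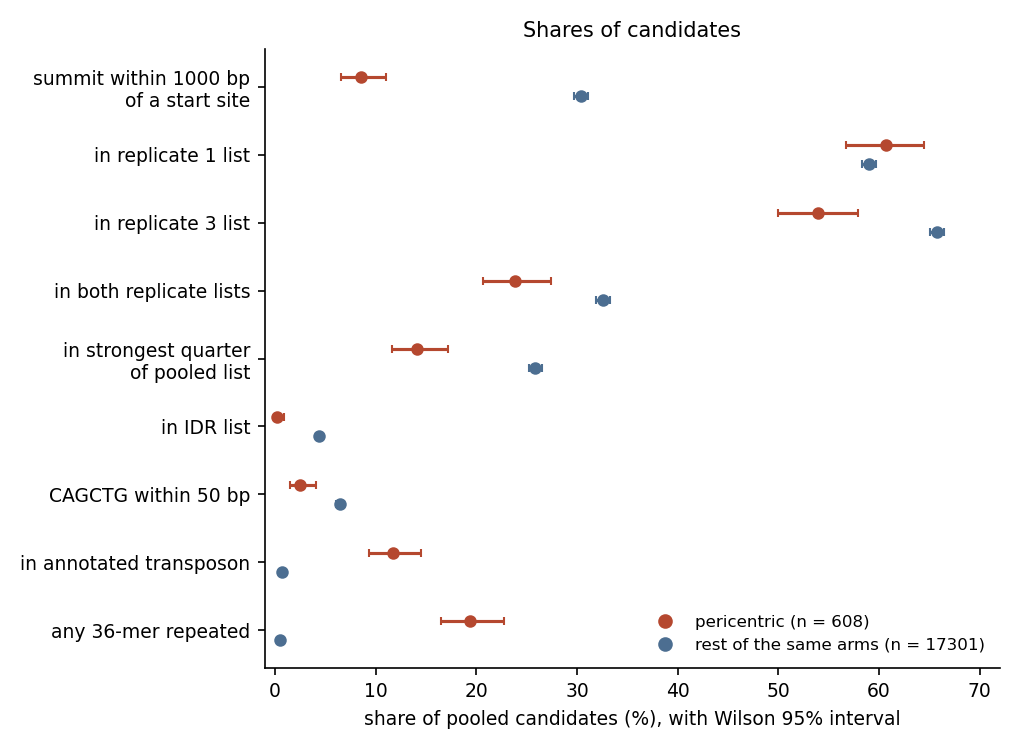
Shares of pooled candidates (%, points) with Wilson 95% intervals (bars), pericentric candidates in red above the rest of the same arms in blue, for position, recurrence, strength, motif and repeats. The largest gap is the promoter share, 8.55% against 30.4%, and the shares in the replicate 1 list differ least, 60.7% against 59.0%.

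Where both replicates had a candidate, their signals were low in both. Over the 145 such members the median was 12.9 in replicate 1 and 14.5 in replicate 3, and the median log2 ratio (replicate 3 over replicate 1) was 0.18 with an SD of 0.43. In the rest of the arms the medians were 14.7 and 16.7 and the median log2 ratio was 0.14 with an SD of 0.56. Scales differ between the lists, so the ratio is only compared with its value in the rest. Apart from beta-Man, no member reached 30 in both.

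**Figure D5:**
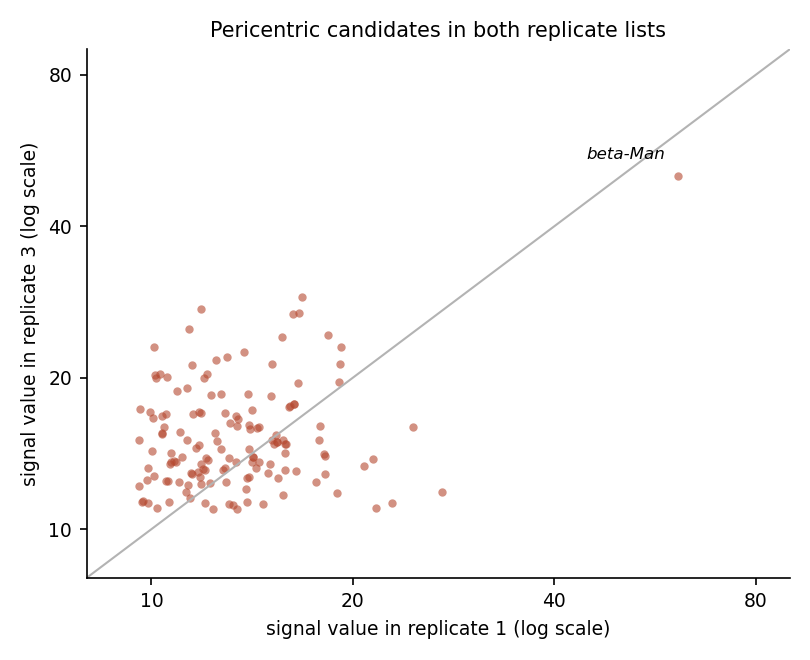
Signal value in replicate 3 against that in replicate 1 (both log scale) for the 145 pericentric candidates found in both lists; each point is a candidate and the grey line marks equal values. The beta-Man promoter, at 61.2 and 50.4, stands apart from all other points.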

How the data were processed

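Chromatin immunoprecipitation with sequencing of crp-GFP embryos was deposited as narrowPeak lists. Per the labels, chromatin was sonicated to 200 to 800 bp. The file records state that candidate lists came from each replicate's alignments with a control, and IDR lists from both replicates and the pooled list. The IDR threshold, the peak caller and the aligner are not given in sources used here. The authors deposited a signal value per peak, a −log10 q value, and the distance from start to summit. The signal is the authors' and was used only to describe and rank peaks within a list. No depth is known, so the replicate lists and counting intervals are the measure of error.

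Genes and transposons came from Ensembl release 115, and sequence from the RefSeq copy of the dm6 assembly. Single-copy sequence was every position whose 36-mer, read on either strand, occurs once in the assembly. Shares carry Wilson intervals, differences Newcombe intervals and medians order-statistic intervals, all at 95%. The analysis used Python 3.11.15, NumPy 2.4.6, pandas 2.3.3, SciPy 1.17.1 and Matplotlib 3.10.9, and its procedures were tested on simulated data. The stretches, gene list and comparisons were chosen with earlier results of these data known. Named were all IDR members, the 10 strongest members, the 5 genes with the most members in the body, and listed pericentric genes with a promoter candidate; other genes were picked after their values were seen. Older symbols were matched through RefSeq synonyms (Parp to Parp1, Cht3 to Cht10). Alternatives moved the boundaries, windows, overlaps, comparison stretches and start sites.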

Additional observations from a re-analysis of the deposited data

Results flagged for a closer look

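The dm3 lists, which no comparison above uses, hold separate heterochromatic sequences for these arms. The pooled dm3 list placed 6 of its 13674 candidates on 2LHet, 47 on 3LHet and 38 on 3RHet. Their median signal was 25.5 and their highest 45.3. Replicate 1 had 204 of its 18915 dm3 candidates on the 3 sequences, and replicate 3 had 194 of its 30000. These counts are thus shares of unequal totals. No density was taken on these sequences. None of the 1095 IDR peaks of that build lay there.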

How the results depend on the processing

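Leaving out a replicate means using the other replicate's list alone; recurrence and IDR membership have no such value. No paired analysis was possible because there is a single group. The density ratio stayed below 1 in all alternatives: 0.195 to 0.313 with 1 replicate left out, 0.335 with boundaries 500 kb farther from the centromere and 0.547 per single-copy Mb. The signal ratio, 0.932 as reported, also stayed below 1: 0.939 to 0.946 with 1 replicate left out, 0.924 and 0.966 with boundaries 500 kb toward and away from the centromere, 0.927 against the neighbouring stretch of equal length, 0.942 with 1 summit per merged region, 0.951 above the list median and 0.786 for means. The ratios of the replicate lists differed by an SD of 0.00471, less than most of these shifts. The promoter difference was -20.7 to -20.1 percentage points with 1 replicate left out, -24.4 and -16.6 with the boundaries moved toward and away, -19.5 against the neighbouring stretch, -20.3 per merged region, -28.0 above the list median, and -15.7 and -26.9 for windows of 500 and 2000 bp. It reversed to 0.663 when all annotated entries counted as genes, by construction, since 1094 of the 1259 pericentric entries are transposons; without them, an alternative chosen after seeing the data, it was -22.9. Recurrence differed by -12.2 percentage points with a 1 bp overlap. The IDR difference was -8.11 above the list median and -5.31 with a 1 bp overlap. The difference between summit and flank in CAGCTG among members, 0.329 percentage points, was 0.663 to 0.891 with 1 replicate left out, 0.826 and 1.02 with the boundaries moved toward and away, 2.51 above the list median and 1.15 with flanks from 500 bp. The repeat difference was 1.13 to 2.82 with 1 replicate left out and 18.9 for any repeated 36-mer. The boundaries are coordinates, not marks measured in these embryos, and beta-Man lies 2836 bp inside one of them, so a shift toward the centromere leaves no IDR member.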
